A study of Rattus norvegicus with 8 samples.

Results

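Chemokines and their receptors were followed in the livers of rats kept on a high fat diet or on standard chow. A probe was a member if its transcript accession mapped to a numbered rat Ccl, Cxcl, Ccr or Cxcr gene, or to Cx3cl1, Cx3cr1, Xcl1, Xcr1, Ackr1 to Ackr4, Pf4 or Ppbp. This gave 55 of the 15168 named genes on the array, 35 of them ligands and 20 receptors, measured by 59 of the 30367 probes. Ackr1, Ackr4, Ccr8 and Cxcl3 were matched by no probe and were not analysed here. Of the 55 genes 51 passed the filter on dim probes and were tested. Ccl1, Ccl11, Ccl25 and Ccl26 were not, since each was well above background on at most 1 of the 8 arrays.

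The study's 8 samples were livers of male rats of 22 weeks of age, 5 with the disease state NAFLD after 14 weeks of high fat diet and 3 after 14 weeks of standard chow. No strain, diet composition or genetic change was named in the labels. RNA of each liver sample was labelled with Cy3 and hybridised to 1 Agilent array. Whether every sample was a separate animal was not stated in the labels, so p-values here measure the spread between these samples, which may in part be technical. Values are log2 signal relative to the 75th percentile of the same array, so a difference of 1 is 2-fold, and levels of different probes cannot be set against each other.

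The high fat arrays lay on 2 slides, arrays 1 and 4 on slide 1 and arrays 2, 3 and 5 on slide 2, and all 3 chow arrays lay on slide 3, so that slide and diet cannot be told apart. The share of all probes well above background was 79.0% to 92.7% on the high fat arrays and 66.9% to 71.7% on the chow arrays. All 9 hepatocyte markers were above background on all 8 arrays. None of the 9 passed the test and all 9 had negative differences. In bulk liver, fewer cells of a type and less RNA per cell cannot be told apart.

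Chemokines are small secreted proteins that guide the movement of leukocytes, and they are grouped by the spacing of their first cysteines into CC, CXC, CX3C and XC classes. They signal through G protein-coupled receptors on the arriving cells, while the atypical receptors take ligand up without classical G protein signalling. In liver, Kupffer cells, hepatocytes, stellate cells and sinusoidal endothelium are known sources, and the Ccl2 and Ccr2 pair is best known for drawing monocytes from the blood.

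Many inducible chemokine genes carry a TATA box and sites for NF-kappa B, AP-1 or interferon regulatory factors close to their start. The 250 bases before the start were in RefSeq's promoter table (build GRCr8) for 43 of the 55 genes. The windows of Ccl12 and Ccl7 are shown because these Ccr2 ligands of 1 gene cluster had opposite differences. That of Cxcl13 is shown because it had the smallest p of all members. Cxcl10 was chosen because its window held all 4 motifs searched, as did that of Cxcl11, which is not printed. They are printed 5′ to 3′ along the gene's own strand and end at the base before the start, and capitals mark the motif matches.
Ccl12 (chr10:67567626-67567875, plus strand): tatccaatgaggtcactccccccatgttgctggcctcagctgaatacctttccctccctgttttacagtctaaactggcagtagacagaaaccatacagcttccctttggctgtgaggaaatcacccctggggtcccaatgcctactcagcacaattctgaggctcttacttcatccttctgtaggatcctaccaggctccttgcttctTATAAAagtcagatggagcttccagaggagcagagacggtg
Ccl7 (chr10:67513845-67514094, plus strand): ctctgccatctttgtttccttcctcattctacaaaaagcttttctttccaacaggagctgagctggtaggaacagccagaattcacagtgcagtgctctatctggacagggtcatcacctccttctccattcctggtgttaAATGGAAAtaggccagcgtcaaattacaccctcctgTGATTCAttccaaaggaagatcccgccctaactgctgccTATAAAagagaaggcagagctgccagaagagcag
Cxcl13 (chr14:13917921-13918170, minus strand): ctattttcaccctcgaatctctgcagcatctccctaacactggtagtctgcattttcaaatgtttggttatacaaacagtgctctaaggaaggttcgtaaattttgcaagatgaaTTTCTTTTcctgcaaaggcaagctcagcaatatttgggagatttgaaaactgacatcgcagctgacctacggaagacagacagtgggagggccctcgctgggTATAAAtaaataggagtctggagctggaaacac
Cxcl10 (chr14:15988816-15989065, plus strand): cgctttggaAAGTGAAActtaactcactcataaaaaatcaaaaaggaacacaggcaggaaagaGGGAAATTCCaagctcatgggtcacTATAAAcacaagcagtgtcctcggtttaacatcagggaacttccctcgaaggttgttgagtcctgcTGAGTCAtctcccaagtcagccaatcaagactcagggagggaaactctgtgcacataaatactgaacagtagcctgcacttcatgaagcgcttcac
The TATA core TATAAA, sought on the gene's strand, was present in 12 of 43 member windows (27.9%) and in 8.06% of all 33469 windows in the table. The NF-kappa B consensus, sought by name on both strands, was present in 8 members (18.6%; Ccl9, Ccl20, Ccr3, Cxcl1, Cxcl2, Cxcl6, Cxcl10 and Cxcl11) against 3.54% of all windows. The AP-1 letters TGANTCA, sought on both strands, were present in 7 members (16.3%) against 6.34%. The interferon regulatory factor core AANNGAAA, on both strands, was present in 11 members (25.6%) against 23.3%. A window with several matches of a motif was counted once, and in the printed windows matches of different motifs do not overlap. Ccl7 held the TATA, AP-1 and interferon regulatory factor letters, Cxcl13 the TATA and interferon regulatory factor letters, and Ccl12 the TATA letters alone. The TATA letters began at −162 relative to the start in Cxcl10, and at −41, −34 and −33 in Ccl12, Ccl7 and Cxcl13. Members had 1 window per gene, while the comparison took all 33469 windows, whether or not their genes were on the array. The motif spellings were set after matches to other spellings had been seen, so the shares are description only. These are matches of letters and no measure of binding.

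None of the 51 tested genes passed at an adjusted p of 0.05, by limma with Benjamini-Hochberg adjustment over all 22868 features, where 815 features passed (3.56%; 3.07% higher and 0.49% lower on high fat diet). The smallest adjusted p of a member was 0.0846, for Cxcl13. At an unadjusted p under 0.05 there were 9 members, 5 higher and 4 lower on high fat diet. These were 17.6% of the members against 20.2% of all features (10.8% higher and 9.38% lower), so the members' share was no higher than the background. The diets did not overlap in 5 members (9.8%, against 17.1% of all features). Of these, Cxcl13, Ccl12, Ppbp and Ccr7 were higher on high fat diet (7.93% of all features) and Ccl9 was lower (9.17% of all features). Ppbp and Ccr7 were also among the 5 higher members at an unadjusted p under 0.05. Both were above background on no chow array and passed the filter only through the high fat arrays, so they are no support for a rise. The median difference over tested members was −0.08 against −0.005 over all features, with 22 positive and 29 negative. The 22 include Cxcl6, Ppbp, Ccr2, Ccr7 and Ackr2 and the 29 include Ccl20, all above background on no chow array. The estimate was at least 2-fold in size for 2 members, Cxcl13 and Ccl12 (3.92%, against 6.56% of all features), and for 23 of the 51 the 95% interval lay within 2-fold in both directions.

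**Figure D1:**
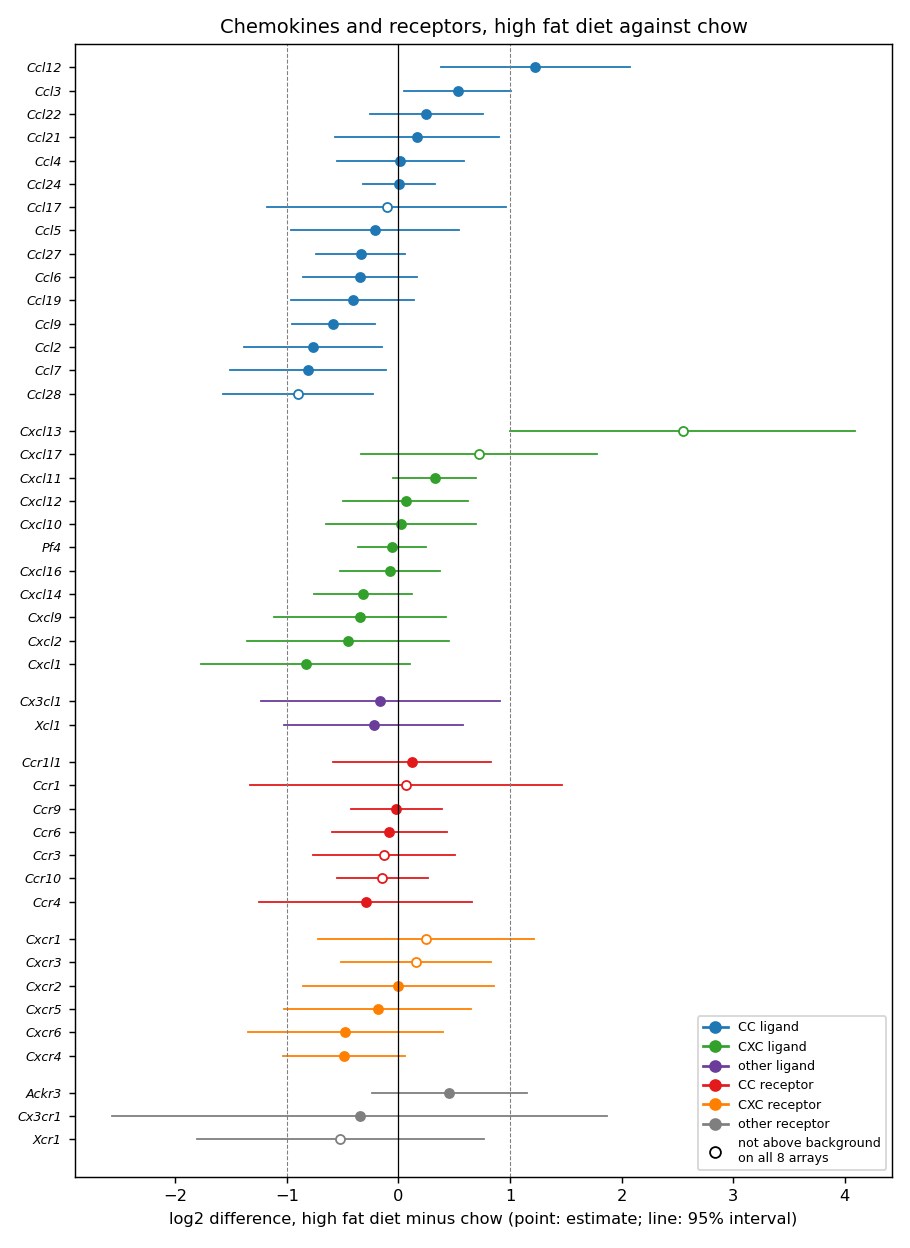
Difference between high fat diet and chow (log2) for tested chemokine and receptor genes, with its 95% interval from limma; 5 high fat and 3 chow arrays. Cxcl13 at 2.55 and Ccl12 at 1.23 lie farthest to the high fat side and Ccl28 at −0.90 farthest to the chow side. The 6 genes above background on no chow array are not drawn, and no gene passed after adjustment over all features.

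Detection of the members varied by array. Of the 59 member probes 49, 51, 55, 48 and 52 were well above background on high fat arrays 1 to 5, and 42 on each of the 3 chow arrays. Of the tested genes 35 were above background on all 8 arrays and 16 were not. Among these 16, Ccl20, Cxcl6, Ppbp, Ccr2, Ccr7 and Ackr2 were above background on no chow array, and Ppbp and Ccr7 alone of these 6 were above it on all 5 high fat arrays. The detection limit was also higher on the chow arrays relative to their signal, so for none of these 6 did the bound on the fold reach 1. Array values are given below for Ppbp, Ccr2, Ccr7 and Ackr2, and no fold is given for any of the 6. Fitted differences of these genes appear only in the last section, where the processing is varied. Of the other 10, Ccl17, Cxcl17, Ccr1, Cxcr1 and Xcr1 were above background on 1 chow array and Ccl28, Cxcl13, Ccr3, Ccr10 and Cxcr3 on 2. Among the 35 genes measured everywhere, 5 had an unadjusted p under 0.05. In a fit of such probes alone 5 of 35 did so, against 21.2% of its features. The diets did not overlap in 1 higher gene (Ccl12) and 1 lower gene (Ccl9) of the 35. Of all features above background on every array 5.83% and 11.8% did so.

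**Figure D2:**
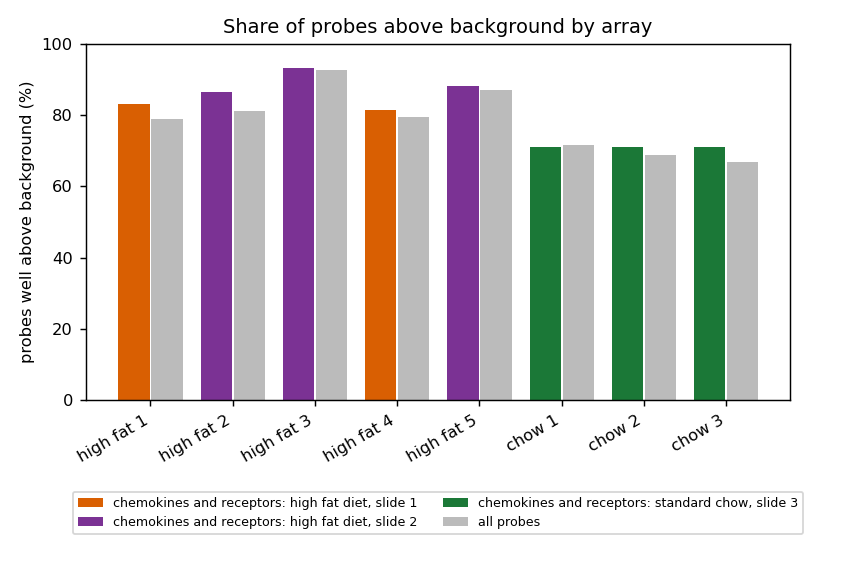
Share of probes well above background (percent) on each array, for the 59 chemokine and receptor probes (coloured by diet and slide) and for all probes (grey). The member share was 81.4% to 93.2% on the high fat arrays and was 71.2% on each chow array, and the share of all probes was likewise lower on chow.

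The ligands of Ccr2, which recruit monocytes, pointed in opposite directions. Ccl12, a monocyte chemoattractant closely related to Ccl2, had values of −0.64, 0.47, 0.65, −0.87 and 0.36 on high fat arrays 1 to 5 and of −1.12, −1.40 and −1.18 on the chow arrays. All 5 high fat arrays lay above all 3 chow arrays, with slide 2 above slide 1. The difference was 1.23 ± 0.37 (SE), 2.34-fold, with an adjusted p of 0.115 by limma. It was 0.48 with the slide 1 high fat arrays alone (adjusted p = 0.144) and 1.73 with those of slide 2 alone (adjusted p = 0.0026), where 8.65% and 12.7% of all features passed. It was also called with array weights (1.495, adjusted p = 0.008) and with normexp background and quantile normalization together (1.21, adjusted p = 0.0443). These settings called 16.5% and 9.25% of all features.

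Ccl2, the classical monocyte chemoattractant, had values of −2.31, −2.20, −1.38, −2.49 and −2.52 on high fat diet and of −1.24, −1.67 and −1.34 on chow. High fat array 3 lay among the chow arrays and the other 4 lay below them. The difference was −0.77 ± 0.27 (SE, adjusted p = 0.168, limma), and −0.96 without high fat array 3, where it passed (adjusted p = 0.0325). It also passed with array weights (−0.86, adjusted p = 0.0308), with normexp and quantile together (−0.59, adjusted p = 0.0414) and with the slide 1 high fat arrays alone (−0.98, adjusted p = 0.0418), and not with those of slide 2 alone (−0.62, adjusted p = 0.198). Ccl7, a monocyte chemoattractant named here after its values were seen, had −4.72, −4.24, −3.38, −4.58 and −3.79 on high fat diet and −3.46, −3.31 and −3.21 on chow. High fat array 3 again lay within the chow range and the other 4 below it. Its difference of −0.81 ± 0.31 (SE, adjusted p = 0.189) passed after quantile normalization (−0.89, adjusted p = 0.0198), in the authors' deposited table (−0.89, adjusted p = 0.0192), with normexp and quantile together (−0.35, adjusted p = 0.0429) and with slide 1 alone (−1.32, adjusted p = 0.0187). These settings called 4.78%, 4.99%, 9.25% and 8.65% of all features. With slide 2 alone Ccl7 did not pass (−0.47, adjusted p = 0.203), and both slide 1 arrays lay below all slide 2 arrays.

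In the RefSeq gene order on chromosome 10 the protein-coding genes run Ccl2, Ccl7, Ccl11, Ccl12, Ccl1, with Ccl11 and Ccl1, on either side of Ccl12, too dim to be tested. The signs of Ccl12, Ccl2 and Ccl7 were the same in all 21 alternative settings. With slide as a random block their adjusted p by limma was 0.612, 0.858 and 0.791, where 0.367% of all features passed. Ccr2 itself, the receptor on inflammatory monocytes, was above background on 3 high fat arrays and no chow array. Of 13 macrophage and Kupffer cell markers 12 were tested and all 12 were above background on all arrays. None of these 12 passed, and their summed signal was 54.4 to 81.7 on high fat diet and 74.4 to 96.0 on chow, in units of the array's 75th percentile. Clec4f, a Kupffer cell lectin, had a difference of −0.59 (adjusted p = 0.0864). Of the 12 tested markers 4 had positive and 8 negative differences, with a median of −0.19. The part of these cells in the Ccr2 ligand values was not tested.

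**Figure D3:**
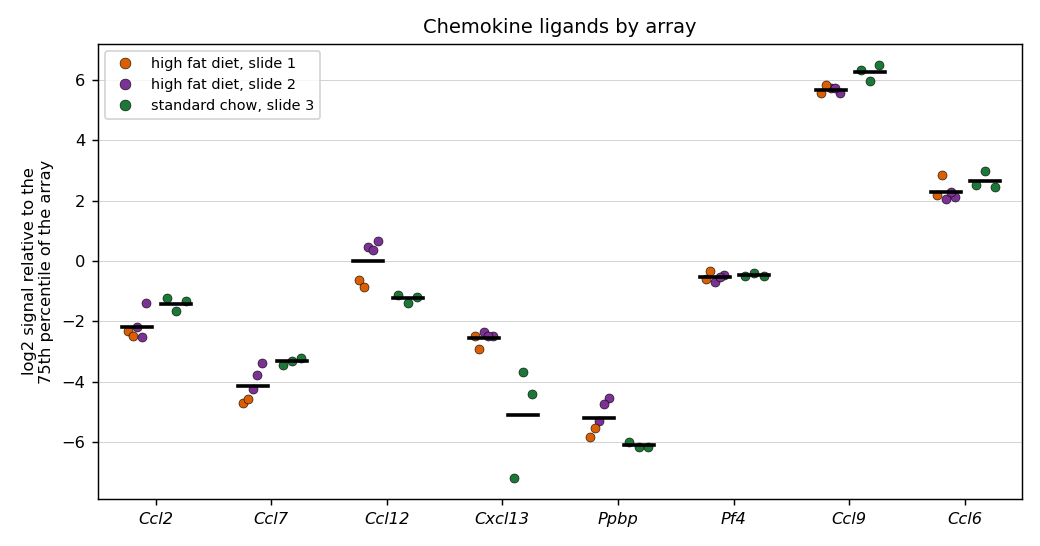
Log2 signal relative to the 75th percentile of the array for ligands, 1 point per array, coloured by diet and slide, with bars at the diet means. For Ccl12 all high fat arrays (−0.87 to 0.65) lie above chow (−1.40 to −1.12), for Ccl9 all lie below (5.56 to 5.83 against 5.96 to 6.51), and for Ccl2 high fat array 3 (−1.38) lies among the chow arrays.

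Ccl3, Ccl4, Ccl5, Ccl6 and Ccl9, inflammatory CC chemokines of myeloid and T cells, had differences from −0.58 to 0.53. Ccl9, a CC chemokine made by myeloid cells, had values of 5.56, 5.72, 5.57, 5.83 and 5.75 on high fat diet and of 6.33, 5.96 and 6.51 on chow. All high fat arrays were below all chow arrays, and the 2 high fat slides had nearly the same mean (5.69 and 5.68). The difference was −0.58 ± 0.16 (SE), 1.499-fold lower, with an adjusted p of 0.096 by limma. It was called with array weights (−0.60, adjusted p = 0.0184), where 16.5% of all features passed. It was −0.33 after quantile normalization and in the authors' deposited table (adjusted p = 0.199 and 0.197). With slide as a random block the adjusted p was 0.786. Ccl5, which draws T cells and monocytes, had values of 1.27, 0.97, 1.62, 2.44 and 2.08 on high fat diet and of 1.63, 2.06 and 1.96 on chow, which overlapped. Its difference was −0.21 ± 0.33 (SE, adjusted p = 0.784), and it was positive with normexp background (0.12). Ccl3, outside the rule for values by array and picked for its unadjusted p, had a difference of 0.53 ± 0.21 (SE, adjusted p = 0.208) and was called with array weights (0.63, adjusted p = 0.0435). Ccl4 and Ccl6 had 0.02 and −0.35.

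Ccl19 and Ccl21 bind Ccr7 and guide dendritic cells and naive T cells to lymphoid tissue. Ccl19 had values of −1.54, −1.72, −1.41, −0.81 and −1.11 on high fat diet and of −1.15, −0.57 and −1.0 on chow. Ccl21 had −2.59, −2.54, −1.87, −1.75 and −1.29 on high fat diet and −2.47, −1.83 and −2.24 on chow. In both genes the diets overlapped, with differences of −0.41 ± 0.24 and 0.17 ± 0.32 (SE, adjusted p = 0.382 and 0.826).

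The remaining CC ligands gave no call. Ccl28, a mucosal chemokine named for its unadjusted p, had the lowest estimate of all members, −0.90 ± 0.29 (SE, adjusted p = 0.139). It lay between −5.0 and −4.52 on high fat diet and was −3.62, −4.62 and −3.30 on chow, with chow array 2 inside the high fat range; without that array the difference was −1.29 and passed (adjusted p = 0.0342), as it did with array weights (−1.10, adjusted p = 0.0214). With slide as a random block the adjusted p of Ccl28 by limma was 0.853. Ccl17 and Ccl22, which bind Ccr4, had −0.11 and 0.25, and Ccl27 had −0.34. Ccl20, which binds Ccr6, was above background on 3 high fat arrays and no chow array. Ccl24, an eosinophil attractant, had 0.003 ± 0.14 (SE), with a 95% interval from −0.32 to 0.32, and was called higher only with normexp and quantile together (0.36, adjusted p = 0.0302).

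Among CXC ligands Cxcl13, which attracts B cells into follicles through Cxcr5, had the largest estimate of all members. Its values were −2.50, −2.34, −2.48, −2.93 and −2.50 on high fat diet and −7.21, −3.67 and −4.42 on chow. All high fat arrays were above all chow arrays, and chow array 1, which was not above background for this probe, was far below the other two. The difference was 2.55 ± 0.68 (SE), with an adjusted p of 0.0846. Without chow array 1 it was 1.495 and passed (adjusted p = 0.0383), as it did with values raised to the detection limit (1.84, adjusted p = 0.0142), with array weights (3.51, adjusted p = 0.0146) and with normexp and quantile together (0.91, adjusted p = 0.0124). With normexp background alone it was 0.43, and it was positive in all 20 alternatives that tested it. With slide as a random block the adjusted p by limma was 0.786.

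The receptor of Cxcl13, Cxcr5, had a difference of −0.19 ± 0.37 (SE, adjusted p = 0.835). Of 8 B and plasma cell markers 5 were tested and none passed, and their summed signal was 4.77 to 12.2 on high fat diet and 5.18 to 8.01 on chow. The part of B cells in the Cxcl13 values was not tested.

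The neutrophil-attracting CXC ligands that bind Cxcr1 and Cxcr2 gave no call, and the pair measured on all arrays, Cxcl1 and Cxcl2, had negative estimates. Cxcl1 had values of −1.55, −2.03, −1.11, −2.39 and −2.80 on high fat diet and of −0.58, −1.76 and −1.09 on chow, with a difference of −0.83 ± 0.41 (SE, adjusted p = 0.299). Cxcl2 had −1.27, −1.65, −2.35, −2.33 and −2.93 on high fat diet and −2.26, −1.49 and −1.22 on chow, with a difference of −0.45 ± 0.40 (SE, adjusted p = 0.582). The diets overlapped for both. Cxcl6 was above background on 3 high fat arrays and no chow array. Of 11 neutrophil markers 9 were tested and none passed, with a summed signal of 1.94 to 2.40 on high fat diet and 1.52 to 2.28 on chow. S100a8, a calcium-binding protein of neutrophils, had 1.05 (adjusted p = 0.122). Of the 9 tested markers 5 had positive and 4 negative differences, with a median of 0.13. Their part in the Cxcl1 and Cxcl2 values was not tested.

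Ppbp and Pf4 are chemokines of platelet granules. Ppbp had values of −5.84, −5.31, −4.56, −5.53 and −4.73 on high fat diet and of −5.99, −6.17 and −6.17 on chow, where the probe was not above background on any array. The means were −5.19 ± 0.54 (SD, n = 5) and −6.11 ± 0.10 (SD, n = 3), with an adjusted p of 0.137 by limma. The chow values lie under the detection limit, so the size of the difference is not known. The fit gave an adjusted p of 0.0405 after quantile normalization, 0.0285 with array weights and 0.0156 with slide 2 alone. Its sign turned with normexp background and with values raised to the detection limit. The probe passed the filter only through the high fat arrays, so these p-values are no support for a rise. Pf4, named beside it after its values were seen, was above background on all 8 arrays and had −0.06 ± 0.13 (SE, adjusted p = 0.866). Of 8 platelet markers 6 were tested and 1 rose, Gp9, a subunit of the von Willebrand factor receptor (1.11, adjusted p = 0.0354). Their summed signal was 1.16 to 1.83 on high fat diet and 1.26 to 1.68 on chow. The part of platelets in the Ppbp values was not tested.

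The interferon-inducible ligands Cxcl9, Cxcl10 and Cxcl11 bind Cxcr3 on activated T cells and NK cells. Cxcl9 had values of −0.83, −1.06, −0.60, 0.25 and −0.02 on high fat diet and of 0.36, −0.13 and −0.56 on chow. Cxcl10 had 0.18, −0.74, 0.02, 0.69 and −0.33 on high fat diet and −0.03, 0.002 and −0.15 on chow. Both overlapped between diets, the high fat arrays of Cxcl10 spreading on either side of the chow arrays, with differences of −0.34 ± 0.34 and 0.02 ± 0.29 (SE, adjusted p = 0.633 and 0.978); the sign of Cxcl10 turned with normexp background (−0.18) and in other settings. Cxcl11 had 0.33 (adjusted p = 0.306) and was called with normexp and quantile together (0.45, adjusted p = 0.0417).

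Cxcl12, a homeostatic chemokine that retains Cxcr4-bearing cells, had values of 5.54, 5.31, 4.91, 5.31 and 4.95 on high fat diet and of 5.48, 4.59 and 5.36 on chow. Cxcl16, a membrane-bound ligand of Cxcr6, had 0.08, −0.44, −0.29, 0.26 and −0.19 on high fat diet and 0.18, −0.07 and −0.24 on chow. The diets overlapped in both, with differences of 0.06 ± 0.25 and −0.08 ± 0.20 (SE, adjusted p = 0.918 and 0.88). The 95% interval of each lay within 2-fold. A second Cxcl12 probe gave 0.06 as well. Of the cells known to make Cxcl12 in liver, stellate cells had 10 tested markers with a summed signal of 15.95 to 22.8 on high fat diet and 20.5 to 37.6 on chow, and sinusoidal endothelium had 7 with 40.4 to 46.0 and 47.2 to 49.2. None of these markers passed, and their part in the Cxcl12 values was not tested. Cxcl14 and Cxcl17 had −0.32 and 0.72 (adjusted p = 0.399 and 0.429).

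Cx3cl1, the membrane-anchored ligand of Cx3cr1, had values of −0.28, −0.46, 0.08, −1.05 and 1.06 on high fat diet and of −0.16, −0.50 and 0.76 on chow. Xcl1, which attracts cross-presenting dendritic cells through Xcr1, had −2.72, −1.85, −0.99, −1.98 and −1.41 on high fat diet and −1.78, −1.43 and −1.48 on chow. In both the high fat arrays spread beyond the chow arrays on either side. The differences were −0.16 ± 0.47 and −0.22 ± 0.35 (SE, adjusted p = 0.891 and 0.784). The second probe of Xcl1 gave −0.09, and the second probes of Ccl20 and Xcr1 were above background on no array.

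Among the CC receptors Ccr7, which binds Ccl19 and Ccl21, had values of −5.38, −5.37, −4.67, −5.39 and −4.98 on high fat diet and of −5.68, −5.53 and −6.74 on chow. The means were −5.16 ± 0.32 (SD, n = 5) and −5.98 ± 0.66 (SD, n = 3), with an adjusted p of 0.184 by limma. The 3 chow values lay under the detection limit, so the size of the difference is not known, and the sign of the fit turned with normexp background and with values raised to the detection limit. Ccr2 had −6.13, −6.28, −4.51, −5.88 and −5.21 on high fat diet and −7.20, −5.61 and −5.82 on chow, which overlapped (adjusted p = 0.547), with no chow array above background. Dendritic cell markers, of which 4 of 7 were tested, gave no call. Clec9a was the nearest (−0.62, adjusted p = 0.0673) and the 1 marker with a negative difference. The other 3 were positive, and the list median was 0.20. Over the 4 markers the summed signal was 0.321 to 0.413 on high fat diet and 0.378 to 0.451 on chow. Their part in the Ccr7 values was not tested.

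Ccr1, which binds Ccl3 and Ccl5 on monocytes, had values of −6.61, −5.40, −4.59, −6.66 and −5.47 on high fat diet and of −6.26, −4.50 and −6.67 on chow. It was above background on 4 of 8 arrays and the diets overlapped. The difference was 0.07 ± 0.61 (SE, adjusted p = 0.97), and normexp background turned it to −0.86. Ccr1l1, Ccr3, Ccr4, Ccr6, Ccr9 and Ccr10 had differences from −0.30 to 0.12.

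Among CXC receptors Cxcr4, the receptor of Cxcl12 on most leukocytes, had the smallest p. Its values were −3.16, −2.56, −2.24, −2.92 and −2.29 on high fat diet and −1.96, −2.19 and −2.30 on chow. High fat arrays 3 and 5 lay within the chow range and the other 3 below it, for a difference of −0.49 ± 0.24 (SE, adjusted p = 0.298). Cxcr6, a receptor of liver T cells and NKT cells, had −5.46, −4.71, −3.87, −5.11 and −3.85 on high fat diet and −4.08, −4.24 and −4.05 on chow, with high fat arrays on either side of chow and a difference of −0.47 ± 0.38 (SE, adjusted p = 0.541). Cxcr3 had −5.19, −5.15, −4.14, −4.54 and −4.16 on high fat diet and −4.68, −4.63 and −5.07 on chow (0.16 ± 0.29 SE, adjusted p = 0.822), turning to −0.62 with normexp background. Cxcr1 and Cxcr2, the neutrophil receptors, had 0.25 and −0.002. Of 14 T and NK cell markers 13 were tested and none passed, with a summed signal of 2.17 to 3.30 on high fat diet and 2.22 to 3.09 on chow.

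Cx3cr1, a receptor of monocytes and resident macrophages, had the widest spread over the high fat arrays of all tested members. Its values were 0.52, 2.10, 4.68, 0.10 and 2.46 on high fat diet and 3.00, 1.24 and 2.71 on chow. The slide 1 arrays were the lowest of all 8 and high fat array 3 the highest, so the diets overlapped (−0.35 ± 0.97 SE, adjusted p = 0.888). With slide 1 alone the difference was −2.01 (adjusted p = 0.0797) and with slide 2 alone 0.76 (adjusted p = 0.499).

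The atypical receptor Ackr3, which scavenges Cxcl12, had values of −1.75, −1.99, −2.65, −2.62 and −2.92 on high fat diet and of −2.40, −3.13 and −2.99 on chow. Ackr2, which scavenges inflammatory CC chemokines, had −5.25, −5.14, −4.55, −5.86 and −6.12 on high fat diet and −5.48, −6.73 and −5.25 on chow. Both overlapped. The difference of Ackr3 was 0.45 ± 0.30 (SE, adjusted p = 0.452), and −0.13 with normexp background. Ackr2 was above background on 3 high fat arrays and no chow array (adjusted p = 0.641). Xcr1 had −0.52 (adjusted p = 0.669).

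**Figure D4:**
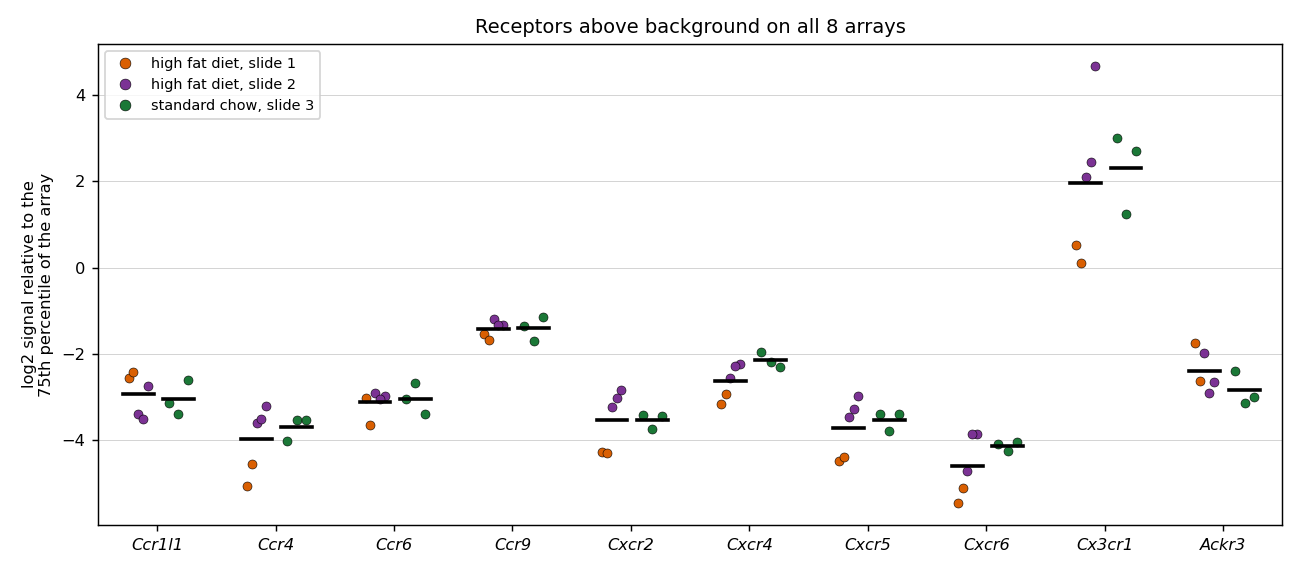
Log2 signal relative to the 75th percentile of the array for receptors above background on all 8 arrays, 1 point per array, coloured by diet and slide, with bars at the diet means. For Cxcr6 the slide 1 arrays (−5.46 and −5.11) lie below every other array, and for Cx3cr1 the slide 1 arrays (0.52 and 0.10) lie lowest while slide 2 reaches 4.68.

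Within the high fat diet the members differed between slides. Both slide 1 arrays were below all 3 slide 2 arrays in 22 of 51 members (43.1%, against 38% of all features) and above them in 4 (7.84%, against 21%). Among receptors 13 of 20 were lower on slide 1 and 1 was higher, and among ligands 9 of 31 were lower and 3 higher. With the slide 1 high fat arrays alone against chow 5 members passed, Ccl2, Ccl7, Cxcr4 (−0.89, adjusted p = 0.0449), Cxcr5 (−0.91, adjusted p = 0.048) and Cxcr6 (−1.16, adjusted p = 0.0271). These were 9.8% of the members, against 8.65% of all features. With slide 2 alone 2 passed, Ccl12 and Ppbp, 3.92% against 12.7%, though Ppbp was above background on no chow array. On slide 2 the 3 receptors had −0.21, 0.29 and −0.02 (adjusted p = 0.39, 0.317 and 0.964). The slides hold different high fat samples, so slide and sample cannot be told apart here.

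The genes through which chemokine receptors signal were described from a list of 51, of which 43 were tested. None passed, and 11 had an unadjusted p under 0.05, 4 higher and 7 lower, which is 25.6% against 20.2% of all features (10.8% higher and 9.38% lower). The median difference was −0.07. The 2 with the smallest p were the regulatory subunits of phosphoinositide 3-kinase gamma. Pik3r5 had values of 0.91, 0.86, 1.02, 0.81 and 1.22 on high fat diet and of 0.39, −0.15 and 0.48 on chow, for a difference of 0.73 ± 0.18 (SE, adjusted p = 0.076). Pik3r6 had −3.54, −3.74, −2.87, −3.07 and −3.11 on high fat diet and −2.66, −2.67 and −2.38 on chow, for −0.70 ± 0.22 (SE, adjusted p = 0.131). The diets did not overlap in either, Pik3r5 being higher (7.93% of all features) and Pik3r6 lower (9.17%) on high fat diet.

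Inducers of chemokine transcription formed a list of 28, of which 22 were tested and above background on all arrays. None passed, and 3 had an unadjusted p under 0.05, all lower on high fat diet, which is 13.6% against 20.2% of all features (9.38% lower). The list median was 0.03. Ifngr1, a chain of the interferon gamma receptor, had values of 0.72, 0.90, 1.11, 0.80 and 1.02 on high fat diet and of 1.404, 1.35 and 1.396 on chow. Ifngr2, its other chain, had 1.83, 1.79, 1.60, 1.56 and 1.46 on high fat diet and 2.05, 2.12 and 2.10 on chow. All high fat arrays lay below all chow arrays for both chains, with differences of −0.48 ± 0.14 and −0.44 ± 0.14 (SE, adjusted p = 0.113 and 0.13). All high fat arrays lay below all chow arrays in 9.17% of all features.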

How the data were processed

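Total RNA from liver was measured on 8 single-colour Agilent arrays (5 high fat diet, 3 standard chow). Per the file headers and the submitters' processing notes, the deposited intensity of each spot (background-subtracted processed signal) and its well-above-background and outlier flags came from Agilent Feature Extraction 11.0.1.1, and the design names build rn4. The authors' deposited table of log2 values was used as an alternative. Its normalization is not given in the sources used here, and its array medians were nearly equal (6.4233 to 6.4243). Its estimates for Ccl2, Ccl7 and Ccl9 were close to those after quantile normalization, so the 2 settings are not separate evidence there. For Cxcl13 they were 2.22 and 2.60. Outlier spots were left out, spots of a probe averaged, and log2 intensity set relative to each array's 75th percentile. Probes well above background (at least 0.5 of spots) on 3 of 8 arrays were kept, with 1 probe per gene, that of the highest mean. Accessions were named through RefSeq's GRCr8 gene table (18005 of 30367 probes). Diets were compared with limma 3.58.1 (R 4.3.3), two-sided, with Benjamini-Hochberg adjustment over 22868 features, and the fit was tested on simulated data. The number of arrays limits the precision. Members and lists were chosen with earlier results of these data known. Values per array are given for members that passed, members of at least 2-fold whose diets did not overlap, the 2 smallest p per role, further members fixed by name, and the 2 smallest p of each pathway list where none passed. The spelling of the promoter motifs was set after matches to other spellings had been seen. For 1 member gene, kept in the counts, values are not reported here. Alternatives were other filters, background corrections, normalizations, array weights, slide or replicate number as a block, each array left out, single slides, each probe as its own feature, and values raised to the detection limit.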

Additional observations from a re-analysis of the deposited data

Results flagged for a closer look

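Among the 25 genes given by array, 2 had 1 high fat array set apart from the other 4, where the gap to the nearest array exceeded 0.71 of the whole range. Chance alone sets apart about 1 group in 20. For Ccl2 it was high fat array 3, at −1.38, with a gap of 0.718 of the range, and this array lay among the chow arrays. For Cxcl13 it was high fat array 4, at −2.93, with a gap of 0.722 of the range, on the side of the chow arrays and still above all of them.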

How the results depend on the processing

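Of 21 alternatives 11 called no member and 10 called at least 1. In at least 1 alternative 13 members were called, no member in more than 4, and 38 in none. Ppbp, 1 of these 13, was above background on no chow array. After quantile normalization 2 members were called (3.92%, against 4.78% of all features), and 6 with normexp and quantile together (11.8%, against 9.25%). The authors' deposited table gave 1 (1.96%, against 4.99%) and array weights 7 (13.7%, against 16.5%). Slide 1 alone gave 5 (9.8%, against 8.65%) and slide 2 alone 2 (3.92%, against 12.7%). With values raised to the detection limit 1 was called (1.96%, against 2.72%). Leaving out single arrays gave 0 to 1 (at most 1.96%, against 1.64% to 3.45%). Over all features, 815 calls became 486 with probes above background everywhere, 149 with normexp, 2115 with normexp and quantile, 3774 with array weights, 84 with slide as a random block, 1979 and 2903 with slide 1 or 2 alone, and 374 to 789 with single arrays left out. The signalling list had 4 calls with normexp and quantile, 5 with array weights, 1 with each slide alone and 0 to 1 with single arrays left out, and the inducer list 1, 1, 2 (slide 1) and 1 (slide 2). Deviations of same-numbered high fat and chow arrays had r = 0.045, 0.0347 and 0.0654 over 22723 features. Different-numbered arrays had −0.1153 to 0.0747, so the numbers showed no sign of pairing, which so few arrays cannot exclude. With the replicate block 4 features and no member were called.

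Of the 25 named members 10 kept their sign everywhere and 15 did not; of these Ppbp alone was called in some alternatives. The values of Ackr2, Ccr2, Ccr7 and Ppbp, above background on no chow array, are those of the fit and no measure of a fold. Normexp moved the median of all features to −0.29. It gave Ackr2 −0.65, Ackr3 −0.13, Ccl21 −0.17, Ccl5 0.12, Ccr1 −0.86, Ccr2 −0.58, Ccr7 −0.69, Cxcl10 −0.18, Cxcl16 0.18, Cxcr3 −0.62 and Ppbp −0.51. Normexp and quantile together gave Ackr2 −0.071, Ccl5 0.15, Ccr1 −0.20, Ccr7 −0.034, Cxcl10 −0.18, Cxcl16 0.20, Cxcr3 −0.014 and Xcl1 0.056. At the detection limit Ackr2 had −0.49, Ccr1 −0.83, Ccr2 −0.71, Ccr7 −0.27, Cxcr3 −0.015 and Ppbp −0.30. Array weights gave Cxcl10 −0.36, Cxcl12 −0.096 and Cxcr3 −0.017, and the replicate block Ccl21 −0.16, Cx3cr1 0.11, Cxcl10 −0.12 and Cxcr3 −0.033. Ccr1 was −0.042 after quantile normalization, −0.056 in the authors' table and −0.033 with the slide block. Slide 1 alone gave Ccr1 −0.83, Cxcl16 0.21 and Cxcr3 −0.072, and slide 2 alone Cx3cl1 0.19, Cx3cr1 0.76, Cxcl10 −0.29, Cxcl12 −0.083 and Xcl1 0.15. With single arrays left out the ranges were −0.024 to 0.715 for Ackr2, −0.01 to 0.35 for Ccl21, −0.37 to 0.72 for Ccr1, −0.46 to 0.20 for Cx3cl1, −1.02 to 0.12 for Cx3cr1, −0.16 to 0.20 for Cxcl10, −0.21 to 0.23 for Cxcl12, −0.17 to 0.037 for Cxcl16 and −0.42 to 0.01 for Xcl1. The cause was not tested. Signal over background limits the 16 members not above it on all arrays.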
